A study of Mus musculus with 9 samples.

Results

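The nuclear genes for the mitochondrial respiratory chain and ATP synthase were followed across 3 heavy chain genotypes of mouse follicular B cells sorted from spleen. Members were taken by symbol: genes starting with Nduf, Uqcr, Atp5, Cox4, Cox5, Cox6, Cox7 or Cox8, and Sdha, Sdhb, Sdhc, Sdhd, Cycs and Cyc1, each read from its brightest probe set with a single symbol. This gave 91 of the 22180 genes with such a probe set, namely 32 complex I subunits, 8 complex I assembly factors, 4 genes of complex II, 9 of complex III, cytochrome c, 19 of complex IV and 18 of ATP synthase. The pseudogenes Atp5c1-ps and Uqcrh-ps1 are among the 91 by their symbols. A further 9 symbols of this kind, among them Cox6c, Ndufb2, Ndufb4, Ndufs6 and Uqcr10, were carried only by probe sets with several symbols and were not analysed here. The mice were homozygous for the ε allele (Igh ε/ε), homozygous for the γ1 allele (Igh γ1/γ1) or had the wild-type locus (Igh wt), were 6 to 12 weeks old, and all carried the label VJk5, which the labels do not explain. Each genotype had 3 arrays, described as independent replicates. Separate mice are not named, so the p-values cover only the spread among these arrays, and how far it is technical is not known. Xist was far lower on replicate 1 of ε/ε and of γ1/γ1 (5.25 and 4.53) than on their replicates 2 and 3 (10.37 to 10.57). Neither of these groups therefore consists of repeats of a single RNA sample.

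The respiratory chain passes electrons from NADH (complex I) and succinate (complex II) through complex III and cytochrome c to complex IV, which reduces oxygen. ATP synthase uses the proton gradient so built to make ATP. Most subunits are encoded in the nucleus and imported, while a few of the membrane core are encoded by mitochondrial DNA. Resting B cells make much of their ATP by this pathway, and activated lymphocytes raise it together with glycolysis.

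Of the 91 genes, 83 passed the filter (a log2 signal over the array's median on at least 3 of 9 arrays) and were tested among 12170 genes. For 79 of the 83 this held on all 9 arrays. The 8 that were not tested were Cox4i2, Cox7a1, Cox7b2, Cox8b, Cox8c, Ndufa4l2 and both pseudogenes. Values are deposited log2 signals, and differences are between group means on that scale. A gene passed where limma's adjusted p (Benjamini-Hochberg, all 12170 genes) was under 0.05.

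In ε/ε cells 4 of the 83 genes passed as lower than in wild-type cells and 0 passed as higher. The 4 were Ndufaf1 and Ndufs1 of complex I, and Atp5l and Atp5md of ATP synthase. They make up 4.82% of the members tested, while 4.02% of all genes tested were lower, 2.33% higher and 6.34% either, so the members' count lies near the background. Below 0 lay 67 of the 83 differences (80.7%), against 51.7% over all genes, and the median was -0.30 against -0.01. Brighter genes lay lower as a whole. Over the 6058 genes passing a filter at each array's percentile 75, 60.8% lay below 0, with a median of -0.11. For the 73 members among them it was 84.9% and -0.33. The ε/ε arrays all lay under the wild-type arrays for 31 members (37.3%), against 16.6% of all genes, and all above for 2, Cox6a1 and Cox6b2, against 11.8%. At an unadjusted p under 0.05, 24 members were lower and 2 higher, against 14.4% and 10.4% of all genes (24.8% either way). No test was made of the list as a whole. In RNA from a whole cell population, fewer cells with a transcript and less of it per cell cannot be told apart. Under quantile normalization the members' median was -0.16 and that of all genes 0.05.

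**Figure D1:**
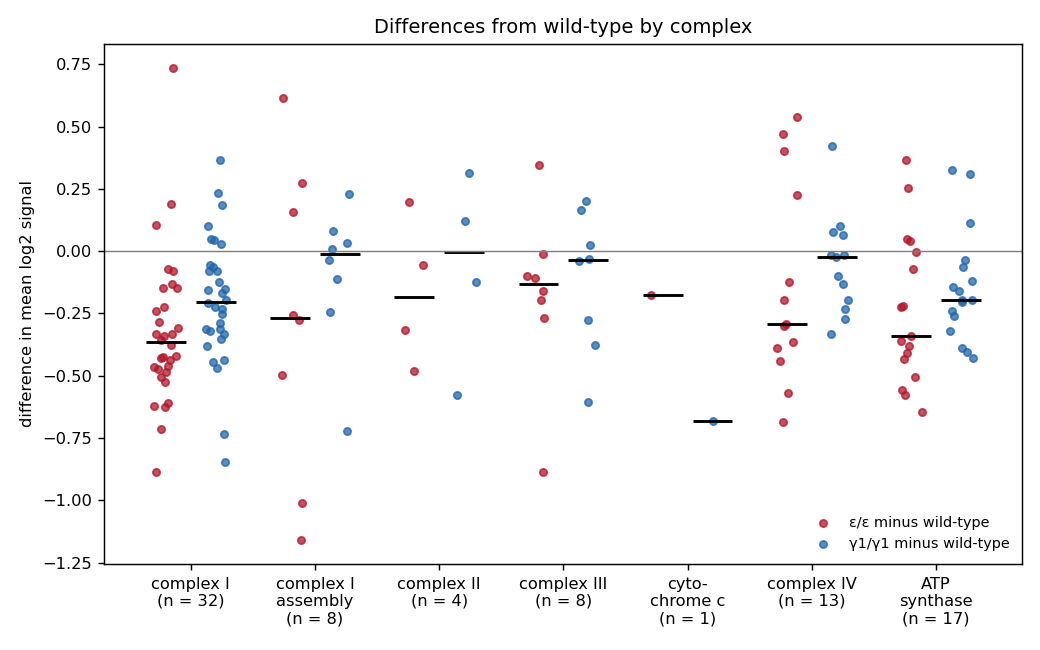
Difference in mean log2 signal from wild-type for each of the 83 tested genes, by complex, with ε/ε and γ1/γ1 in separate colours and a line at each median. The ε/ε medians run from -0.37 for complex I subunits to -0.13 for complex III.

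Ndufaf1, a chaperone that helps to build complex I, had the lowest difference of the members. Its probe set 17389928 read 4.56, 5.21 and 5.0 in ε/ε, 5.52, 5.46 and 5.10 in γ1/γ1 and 5.83, 6.39 and 6.03 in wild-type cells. Every ε/ε and γ1/γ1 value lay below every wild-type value, and the 2 mutants overlapped. In ε/ε it fell by 1.16 (SE 0.21, 2.24-fold, limma adjusted p = 0.0146).

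Ndufs1, the largest iron-sulphur subunit of complex I, read 5.50, 5.73 and 5.75 in ε/ε, 5.93, 6.20 and 6.03 in γ1/γ1 and 6.28, 6.48 and 6.36 in wild-type cells (probe set 17223685). The 3 genotypes did not overlap, and γ1/γ1 lay between the others. In ε/ε it fell by 0.71 (SE 0.14, 1.64-fold, limma adjusted p = 0.0183). Ndufaf1 and Ndufs1 were also the 2 members that differed among the 3 genotypes by limma's F test (adjusted p = 0.0334 and 0.0446), which 4.11% of all genes passed.

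Atp5l encodes subunit g of ATP synthase, a membrane subunit at the contact between paired enzymes. It read 10.45, 10.37 and 10.32 in ε/ε, 11.21, 10.88 and 10.80 in γ1/γ1 and 10.94, 11.09 and 11.05 in wild-type cells (probe set 17526421). The ε/ε arrays lay below the other 6, while γ1/γ1 and wild-type overlapped. In ε/ε it fell by 0.64 (SE 0.15, 1.56-fold, limma adjusted p = 0.0301). Atp5md, another small membrane subunit, read 9.46, 9.56 and 9.59 in ε/ε, 10.10, 9.96 and 9.84 in γ1/γ1 and 9.91, 10.33 and 10.10 in wild-type cells (probe set 17365456). Again all ε/ε values lay below the other 6. It fell by 0.58 against wild-type (SE 0.15, 1.49-fold, limma adjusted p = 0.0471).

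These calls depended on which arrays were included and, for the ATP synthase genes, on the processing. Without wild-type replicate 2 the limma adjusted p was 0.0669 for Ndufaf1, 0.0804 for Ndufs1, 0.113 for Atp5l and 0.163 for Atp5md. Without wild-type replicate 3 it was 0.0549, 0.0671, 0.1 and 0.124, so none of the 4 passed in either case. Calls fell over all genes too, to 1.53% without replicate 2 and 1.73% without replicate 3, against 6.34% in the main fit. In the same order, the 4 differences were -1.01, -0.66, -0.61 and -0.47 without replicate 2. They were -1.19, -0.72, -0.63 and -0.58 without replicate 3. Without any 1 of the ε/ε replicates or wild-type replicate 1, Ndufaf1 and Ndufs1 passed, and Atp5l and Atp5md did not. Atp5md also missed the threshold without γ1/γ1 replicate 2 or 3. It passed under 4 of 18 alternatives and missed under quantile normalization (limma adjusted p = 0.0907), with arrays centred on their medians (0.0665), with no filter (0.0593), in a fit of the 6 arrays compared (0.0795), with the replicate block (0.0752) and without the 2 arrays of low Xist signal (0.0977). Atp5l passed under 11 of the 18 and missed with the replicate block (0.0514). Ndufaf1 and Ndufs1 each passed under 16 of the 18.

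**Figure D2:**
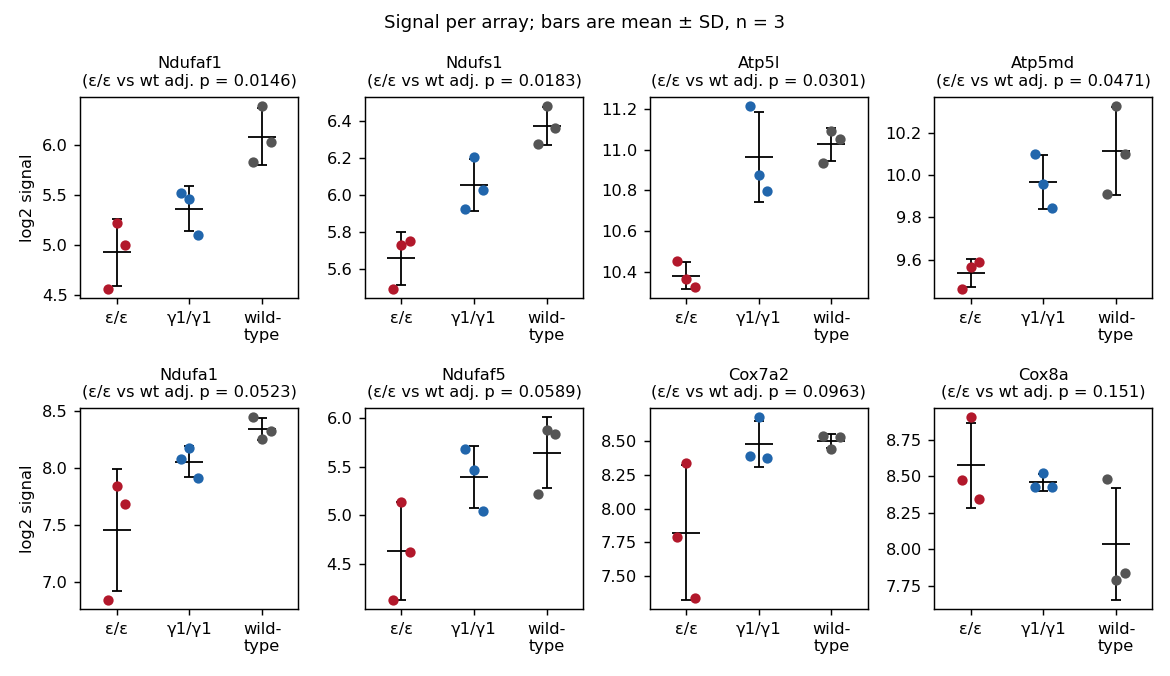
Log2 signal on each array for 8 genes, with the mean ± SD of 3 arrays per genotype and a separate vertical axis in each panel. Ndufaf1, Ndufs1, Atp5l and Atp5md passed between ε/ε and wild-type, and Ndufa1, Ndufaf5, Cox7a2 and Cox8a did not.

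The sequence before the start of 3 of these genes is shown because they were members that passed. RefSeq entries (GRCm38.p6) were matched by symbol for 73 of the 91 genes, among them Ndufaf1 (chr2:119662835-119663084), Atp5l (chr9:44920743-44920992) and Atp5md (chr19:47090648-47090897), all on the minus strand. The 250 bases before each start are printed 5′ to 3′ on the gene's strand. Capitals mark any of the 3 motifs searched, here the ETS motif CCGGAAG or its reverse complement CTTCCGG, known from factors such as GABPA.
Ndufaf1: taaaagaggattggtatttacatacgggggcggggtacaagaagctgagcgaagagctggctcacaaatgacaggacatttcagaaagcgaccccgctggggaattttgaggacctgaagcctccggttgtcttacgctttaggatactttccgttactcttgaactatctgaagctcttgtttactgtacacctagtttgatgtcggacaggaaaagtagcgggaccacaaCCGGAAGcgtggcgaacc
Atp5l: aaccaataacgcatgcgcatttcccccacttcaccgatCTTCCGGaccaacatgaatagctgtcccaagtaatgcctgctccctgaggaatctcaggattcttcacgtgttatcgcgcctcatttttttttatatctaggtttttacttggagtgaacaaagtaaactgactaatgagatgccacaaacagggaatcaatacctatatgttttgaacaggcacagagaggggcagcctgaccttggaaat
Atp5md: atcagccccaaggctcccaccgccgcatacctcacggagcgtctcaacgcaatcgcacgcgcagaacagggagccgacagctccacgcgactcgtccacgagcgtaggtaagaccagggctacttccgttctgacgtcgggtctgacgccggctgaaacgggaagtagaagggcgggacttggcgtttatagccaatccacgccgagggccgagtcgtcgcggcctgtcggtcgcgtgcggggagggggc
The motif began at position -18 in Ndufaf1 (negative positions lie before the start) and at -212 in Atp5l, which had another copy at 25. In Atp5md it lay at 3, outside the bases printed.

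In complex I, which takes electrons from NADH, 29 of 32 subunits lay below 0 between ε/ε and wild-type cells (51.7% of all genes did). The median was -0.37, and 1 of the 32, Ndufs1, passed as lower, where 4.02% of all genes did. The ε/ε arrays all lay under the wild-type arrays for 16 of the 32 and above them for 0, against 16.6% and 11.8% of all genes. The 6 core subunits measured carry the flavin and iron-sulphur clusters or frame the quinone site, and their differences were -0.71 (Ndufs1), -0.47 (Ndufs8), -0.43 (Ndufv2), -0.42 (Ndufs3), -0.38 (Ndufv1), -0.08 (Ndufs7). Their limma adjusted p was 0.183 or higher apart from Ndufs1. The 26 accessory subunits, which surround the core, ran from -0.89 (Ndufa1) to 0.74 (Ndufa11) with a median of -0.34. The division into core and accessory subunits was written after the values had been seen.

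Ndufa1, a small membrane subunit encoded on the X chromosome, read 6.84, 7.84 and 7.69 in ε/ε, 8.08, 8.18 and 7.91 in γ1/γ1 and 8.44, 8.26 and 8.33 in wild-type cells. The genotypes did not overlap, and the ε/ε values were spread by replicate 1. The ε/ε difference of -0.89 (95% interval -1.41 to -0.36) missed the threshold (limma adjusted p = 0.0523). Near the threshold lay also Ndufb9 at -0.62 (limma adjusted p = 0.063) and Ndufb5 at -0.43 (limma adjusted p = 0.0646), both accessory subunits of the membrane arm. Ndufb5 read 5.94, 6.07 and 6.01 in ε/ε, 6.03, 6.20 and 6.09 in γ1/γ1 and 6.47, 6.38 and 6.46 in wild-type cells, a small gap to wild-type with little spread. At the other end Ndufa11, a membrane subunit, read 7.31, 7.49 and 7.68 in ε/ε, 5.30, 7.37 and 7.14 in γ1/γ1 and 7.39, 6.37 and 6.51 in wild-type cells. Its ε/ε and wild-type values overlapped, and the difference was 0.74 (95% interval -0.33 to 1.80, limma adjusted p = 0.375). Ndufs5 passed the filter on 6 of the 9 arrays, 3 wild-type, 2 γ1/γ1 and 1 ε/ε, so it entered the test through the groups where it was high, and it is among the 31 members with ε/ε under wild-type.

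The 8 assembly factors guide complex I together without staying in it. In ε/ε 5 of the 8 lay below 0 (51.7% of all genes did), with a median of -0.27. Ndufaf1 passed as lower, as did 4.02% of all genes. Ndufaf5, which modifies an arginine of a core subunit, read 4.13, 5.14 and 4.62 in ε/ε, 5.68, 5.46 and 5.05 in γ1/γ1 and 5.22, 5.88 and 5.83 in wild-type cells. Its ε/ε values lay below the wild-type values. The difference was -1.01 (95% interval -1.63 to -0.39, limma adjusted p = 0.0589). Ndufaf2, a late assembly factor, had 0.61 (limma adjusted p = 0.199), with overlapping arrays, so signs differed among the assembly factors.

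**Figure D3:**
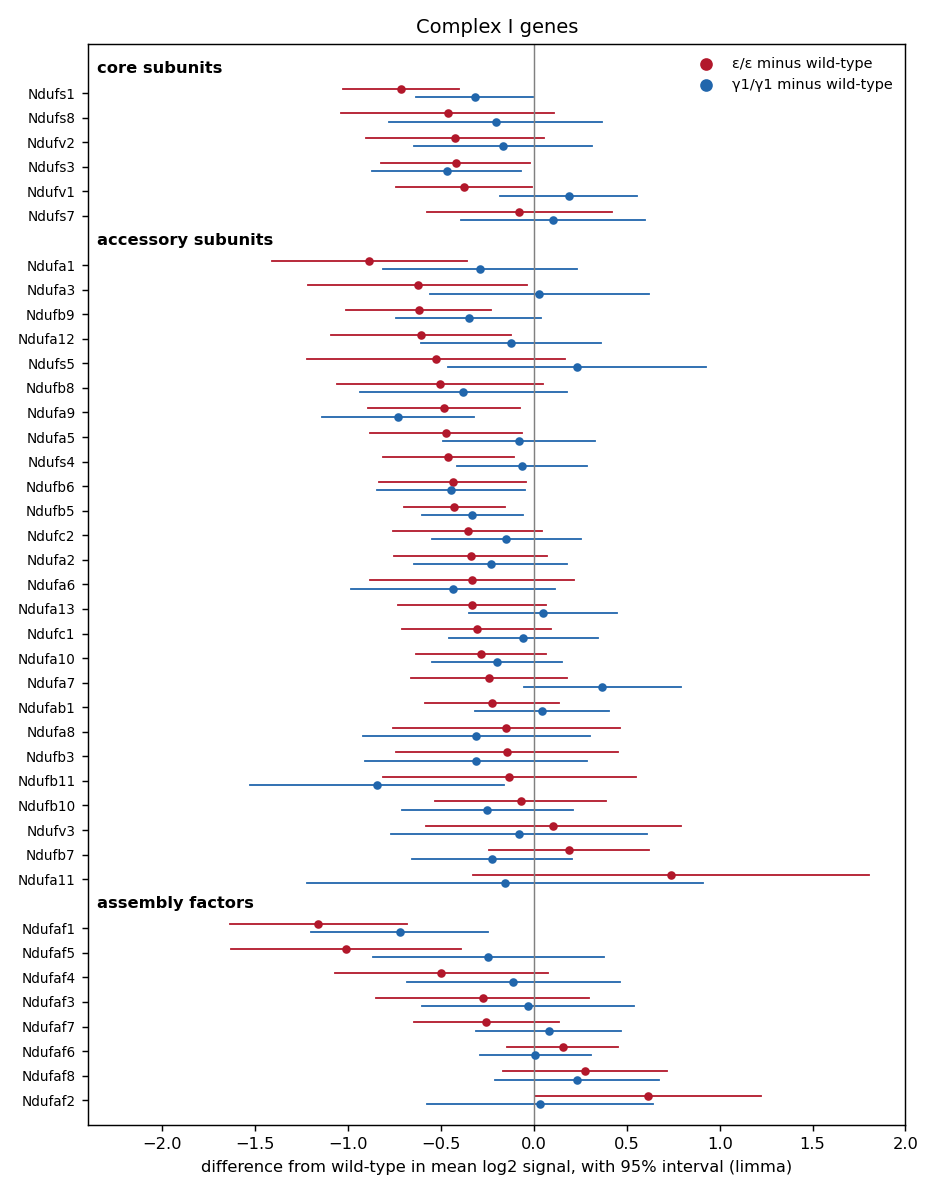
Differences from wild-type with 95% intervals from limma for the subunits and assembly factors of complex I, grouped by role, with ε/ε and γ1/γ1 in separate colours. Ndufs1 and Ndufaf1 passed in ε/ε, and 0 passed in γ1/γ1.

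Complex II oxidises succinate and is also an enzyme of the citric acid cycle. In ε/ε 0 of its 4 genes passed in limma, the median was -0.18, and the arrays overlapped with wild-type for all 4. At an unadjusted p under 0.05, 0 were lower and 0 higher, against 14.4% and 10.4% of all genes. Sdha, the flavoprotein, read 6.82, 7.26 and 7.12 in ε/ε, 7.25, 7.27 and 7.26 in γ1/γ1 and 7.35, 7.26 and 7.54 in wild-type cells (ε/ε difference -0.32, 95% interval -0.65 to 0.02, limma adjusted p = 0.226). The Sdha difference was -0.19 without ε/ε replicate 1 and -0.15 under quantile normalization. Sdhb, the iron-sulphur subunit, read 6.17, 6.12 and 6.17 in ε/ε, 6.18, 6.46 and 6.18 in γ1/γ1 and 6.18, 5.52 and 6.18 in wild-type cells (difference 0.20, limma adjusted p = 0.563), with wild-type replicate 2 below the other 8 arrays. Of the membrane anchors, Sdhc read 4.77, 5.22 and 6.11 in ε/ε, 5.23, 5.50 and 5.09 in γ1/γ1 and 6.00, 5.54 and 5.99 in wild-type cells (difference -0.48, limma adjusted p = 0.354). The Sdhc difference was -0.18 without ε/ε replicate 1 and -0.85 without ε/ε replicate 3. Its γ1/γ1 arrays all lay under the wild-type arrays. Sdhd read 6.09, 6.19 and 5.46 in ε/ε, 6.17, 6.09 and 6.01 in γ1/γ1 and 6.09, 5.68 and 6.13 in wild-type cells (difference -0.05, limma adjusted p = 0.905).

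Complex III passes electrons from ubiquinol to cytochrome c. In ε/ε 0 of its 8 tested genes passed in limma, 7 lay below 0 (51.7% of all genes did), and the median was -0.13. At an unadjusted p under 0.05, 1 was lower and 0 higher, against 14.4% and 10.4% of all genes. Uqcrb, a small subunit at the quinone site, read 6.28, 7.56 and 7.43 in ε/ε, 7.40, 7.56 and 7.15 in γ1/γ1 and 7.86, 8.18 and 7.91 in wild-type cells. Both mutants lay below wild-type on every array. The ε/ε difference was -0.89 (95% interval -1.55 to -0.23, limma adjusted p = 0.101), and it was -0.48 without ε/ε replicate 1. Cyc1 (cytochrome c1), a redox subunit, read 6.08, 6.60 and 6.49 in ε/ε, 6.94, 6.56 and 6.55 in γ1/γ1 and 6.70, 6.62 and 6.65 in wild-type cells, with ε/ε below wild-type and γ1/γ1 overlapping both (difference -0.27, limma adjusted p = 0.369). The Cyc1 difference was -0.11 without ε/ε replicate 1 and -0.12 under quantile normalization. Uqcrfs1, the Rieske protein, differed by -0.16 (limma adjusted p = 0.518), and the core proteins Uqcrc1 and Uqcrc2 by -0.11 and -0.20 (limma adjusted p = 0.736 and 0.435).

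Cycs encodes cytochrome c, the mobile carrier that also triggers apoptosis when released from mitochondria. It read 7.90, 8.41 and 8.11 in ε/ε, 7.78, 8.07 and 7.05 in γ1/γ1 and 8.28, 8.33 and 8.33 in wild-type cells. The γ1/γ1 arrays all lay under the wild-type arrays, with a difference of -0.68 (95% interval -1.22 to -0.15) that missed the threshold (limma adjusted p = 0.649). In ε/ε the Cycs difference was -0.18 (limma adjusted p = 0.694), and the arrays overlapped. It ran from -0.31 without ε/ε replicate 2 to -0.02 under quantile normalization. Cycs had 5 probe sets, 2 of them with the same values on every array, and their γ1/γ1 differences ran from -0.79 to -0.11. Many processed copies of genes such as Cycs exist in the genome, so signal shared between copies is uncertain.

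Complex IV, cytochrome c oxidase, had 0 of 13 tested genes past limma's threshold in ε/ε, where 6.34% of all genes passed. At an unadjusted p under 0.05, 4 were lower and 1 higher, against 14.4% and 10.4% of all genes. Of the 13 differences 9 lay below 0 (51.7% of all genes did). Their median was -0.29, or -0.12 under quantile normalization. Cox4i1, the general isoform of subunit 4, read 8.14, 8.61 and 8.17 in ε/ε, 8.43, 8.85 and 8.56 in γ1/γ1 and 8.83, 8.61 and 8.79 in wild-type cells (difference -0.44, limma adjusted p = 0.153). Its lung isoform Cox4i2 read 3.69, 3.77 and 3.63 in ε/ε, 3.5, 3.38 and 3.54 in γ1/γ1 and 3.58, 3.41 and 3.54 in wild-type cells and was not tested. Cox7a2, the general isoform of subunit 7a, read 7.79, 8.34 and 7.34 in ε/ε, 8.39, 8.68 and 8.38 in γ1/γ1 and 8.54, 8.45 and 8.53 in wild-type cells. Its ε/ε values lay below the other 6. The difference was -0.68 (95% interval -1.19 to -0.18, limma adjusted p = 0.0963). It passed under 1 of 18 alternatives, without ε/ε replicate 2 (limma adjusted p = 0.0232), the adjusted p reached 0.219 among the others, and without ε/ε replicate 3 the difference was -0.44. Its muscle isoform Cox7a1 read 3.25, 3.99 and 3.36 in ε/ε, 3.26, 3.36 and 3.73 in γ1/γ1 and 3.21, 3.36 and 3.36 in wild-type cells and was not tested. Cox7a2l, which joins complexes III and IV in supercomplexes, read 6.59, 7.30 and 7.31 in ε/ε, 7.36, 7.58 and 7.36 in γ1/γ1 and 7.31, 7.31 and 7.46 in wild-type cells (difference -0.29, limma adjusted p = 0.387). Without ε/ε replicate 1 the Cox7a2l difference was -0.056 (limma adjusted p = 0.866), and under quantile normalization it was -0.12.

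Cox8a, Cox6a1, Cox6a2 and Cox6b2 of complex IV had differences above 0. Cox8a, the general isoform of subunit 8, read 8.47, 8.90 and 8.35 in ε/ε, 8.43, 8.52 and 8.43 in γ1/γ1 and 8.48, 7.79 and 7.84 in wild-type cells. The groups overlapped through wild-type replicate 1, and the difference was 0.54 (95% interval 0.07 to 1.01, limma adjusted p = 0.151). The muscle isoform Cox8b read 2.92, 2.44 and 2.98 in ε/ε, 2.66, 2.66 and 2.66 in γ1/γ1 and 2.52, 2.60 and 2.67 in wild-type cells and was not tested. Cox6a1, the general isoform of subunit 6a, read 9.40, 9.30 and 9.49 in ε/ε, 8.62, 9.37 and 9.2 in γ1/γ1 and 9.11, 8.74 and 9.14 in wild-type cells. Its ε/ε arrays all lay above the wild-type arrays (difference 0.40, limma adjusted p = 0.257). Its muscle isoform Cox6a2 read 5.28, 4.77 and 4.92 in ε/ε, 4.77, 4.77 and 4.70 in γ1/γ1 and 4.75, 4.77 and 4.77 in wild-type cells (difference 0.23, limma adjusted p = 0.384). The Cox6a2 difference was 0.080 without ε/ε replicate 1. Cox6b2, the testis isoform of subunit 6b, passed the filter on 4 arrays, 3 of them ε/ε, so it entered the test through the group where it was high (difference 0.47, limma adjusted p = 0.262). Ndufa4, first assigned to complex I, read 9.40, 9.13 and 8.67 in ε/ε, 9.35, 9.35 and 9.17 in γ1/γ1 and 9.24, 9.06 and 9.28 in wild-type cells (difference -0.12, limma adjusted p = 0.722). Its paralog Ndufa4l2 read 2.95, 2.55 and 2.81 in ε/ε, 2.70, 3.23 and 2.73 in γ1/γ1 and 2.90, 3.23 and 2.81 in wild-type cells and was not tested.

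In ATP synthase 2 of 17 tested genes passed, Atp5l and Atp5md, both lower in ε/ε, where 4.02% of all genes were lower, and 13 lay below 0 (51.7% of all genes did) with a median of -0.34. By place in the enzyme, a grouping written after the values had been seen, the 5 small membrane subunits had a median of -0.56. Beside the 2 that passed, these were Atp5mpl at -0.56 (limma adjusted p = 0.18), Atp5k (subunit e) at -0.43 (limma adjusted p = 0.148) and Atp5j2 (subunit f) at 0.05 (limma adjusted p = 0.935). The 4 genes of the peripheral stalk, which holds the head still, had a median of -0.40, from -0.51 for Atp5j (coupling factor 6, limma adjusted p = 0.0829) to 0.37 for Atp5o (limma adjusted p = 0.408). Atp5j read 5.22, 4.81 and 5.18 in ε/ε, 5.2, 5.57 and 5.37 in γ1/γ1 and 5.56, 5.52 and 5.64 in wild-type cells, with ε/ε below wild-type.

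The 5 genes of the F1 head, where ATP is made, had a median of -0.00. The catalytic β subunit Atp5b read 8.55, 8.73 and 8.50 in ε/ε, 8.85, 8.77 and 8.22 in γ1/γ1 and 8.73, 8.69 and 9.03 in wild-type cells, with overlap of all groups (difference -0.22, 95% interval -0.64 to 0.19, limma adjusted p = 0.497). The α subunit Atp5a1 had -0.07 (95% interval -0.44 to 0.30, limma adjusted p = 0.839). The genes of the c ring, the rotor in the membrane, had -0.36 (Atp5g1), -0.34 (Atp5g3) and -0.22 (Atp5g2), with limma adjusted p of 0.3, 0.34 and 0.543. Atp5g3 had the smallest p of the complex in γ1/γ1 and read 7.11, 7.17 and 7.37 in ε/ε, 6.61, 7.41 and 7.36 in γ1/γ1 and 7.60, 7.56 and 7.51 in wild-type cells. Both mutants lay below wild-type, with γ1/γ1 at -0.43 (limma adjusted p = 0.733). Whether these groups of subunits differ from each other was not tested.

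**Figure D4:**
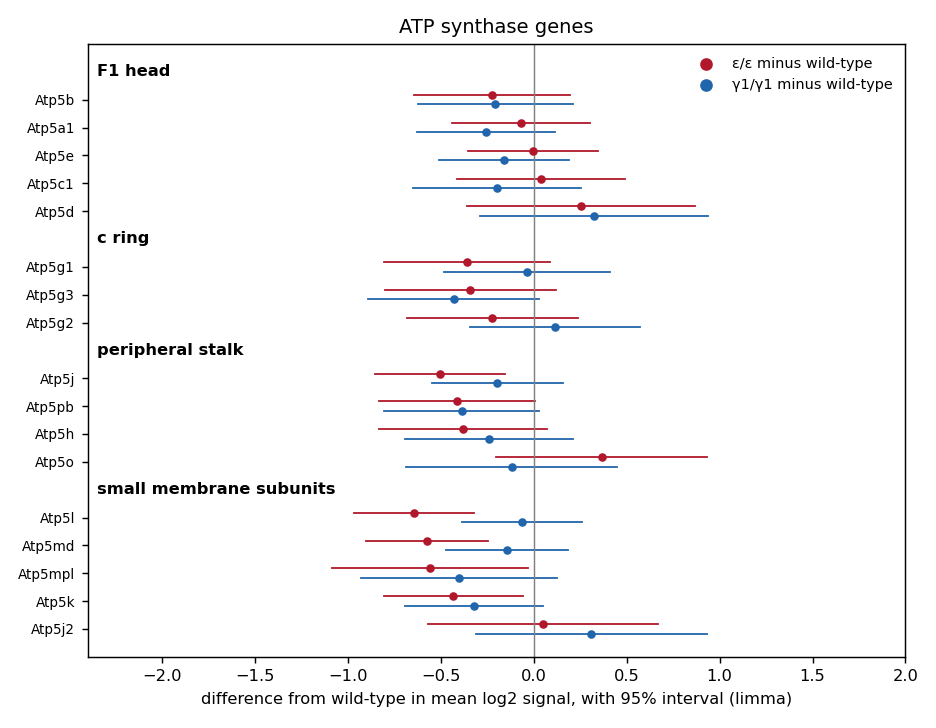
Differences from wild-type with 95% intervals from limma for the 17 ATP synthase genes tested, grouped by place in the enzyme, with ε/ε and γ1/γ1 in separate colours. In ε/ε the F1 genes run from -0.22 to 0.25 and the small membrane subunits from -0.64 to 0.05.

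In γ1/γ1 cells 0 of the 83 genes passed against wild-type in limma, where 0.0411% of all genes did (0.0247% higher and 0.0164% lower). At an unadjusted p under 0.05, 8 members were lower and 0 higher, against 3.79% and 3.03% of all genes (6.82% either way). Below 0 lay 60 of the 83 differences (72.3%, against 53.4% of all genes), and the median was -0.15 against -0.02. With the filter at percentile 75, 74.0% of 73 members and 62.8% of 6058 genes lay below 0, with medians of -0.17 and -0.07. The γ1/γ1 arrays all lay under the wild-type arrays for 20 members (24.1%, against 7.71% of all genes) and above them for 0 (against 4.68%). The smallest p belonged to Ndufa9, an accessory subunit near the quinone site, which read 6.80, 6.85 and 6.54 in ε/ε, 6.17, 6.79 and 6.49 in γ1/γ1 and 7.17, 7.07 and 7.42 in wild-type cells. Both mutants lay below wild-type, and the γ1/γ1 difference was -0.73 (95% interval -1.14 to -0.32, limma adjusted p = 0.454). Cox5b, a zinc-binding subunit of complex IV, read 7.84, 7.72 and 7.80 in ε/ε, 7.61, 7.73 and 7.80 in γ1/γ1 and 8.05, 8.09 and 7.80 in wild-type cells (γ1/γ1 difference -0.27, limma adjusted p = 0.735). Ndufaf1 had -0.72 (limma adjusted p = 0.524) and Uqcrb -0.61 (limma adjusted p = 0.735). By complex the γ1/γ1 medians were -0.20 for complex I subunits, -0.01 for the assembly factors, -0.00 for complex II, -0.04 for complex III, -0.02 for complex IV and -0.19 for ATP synthase. Both comparisons use the same wild-type arrays, so their directions are not independent. The 95% interval lay within 1 log2 unit of 0 for 76 of the 83 genes in γ1/γ1 and for 64 in ε/ε.

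Set directly against γ1/γ1, ε/ε cells had 0 of 83 members past the threshold in limma, where 2.66% of all genes passed (1.02% higher and 1.64% lower). At an unadjusted p under 0.05, 13 were lower and 1 higher, against 10.8% and 9.07% of all genes (19.9% either way). The ε/ε arrays all lay under the γ1/γ1 arrays for 13 members and above them for 1, against 11.3% and 9.86% of all genes. Of the 83 differences 54 lay below 0, as did 6087 of the 12170 over all genes, and the median was -0.13 against -0.00. Atp5l came closest, at -0.58 (95% interval -0.90 to -0.26, limma adjusted p = 0.0629). Ndufv1, which binds NADH and the flavin, read 5.95, 6.15 and 6.26 in ε/ε, 6.44, 6.69 and 6.93 in γ1/γ1 and 6.60, 6.33 and 6.57 in wild-type cells. Its ε/ε values lay below the other 6, at -0.56 against γ1/γ1 (limma adjusted p = 0.101). Ndufaf1 differed by -0.44 (limma adjusted p = 0.29) and Ndufs1 by -0.39 (limma adjusted p = 0.159), so no difference between the mutants was shown for them.

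Genes around the pathway were read from the same fit, and 0 genes of the next 4 lists passed between γ1/γ1 and wild-type. Of 10 subunits encoded by mitochondrial DNA 0 passed in ε/ε (0 lower and 0 higher at an unadjusted p under 0.05), and 10 of 10 lay below 0 with a median of -0.14. Of 40 other assembly factors 4 were lower in ε/ε and 0 higher (7 lower and 1 higher at an unadjusted p under 0.05), with a median of -0.07. Over all genes 4.02% were lower and 2.33% higher, or 14.4% and 10.4% at an unadjusted p under 0.05. Coa6 and Cox16, both needed for complex IV, fell by 0.91 and 0.89 (limma adjusted p = 0.0123 and 0.0124). Nubpl, an iron-sulphur factor of complex I, fell by 0.87 (limma adjusted p = 0.0301), and Lrpprc, which stabilises mitochondrial mRNA, by 0.61 (limma adjusted p = 0.0336). Cox16 read 5.77, 5.86 and 6.29 in ε/ε, 6.69, 6.73 and 6.61 in γ1/γ1 and 6.80, 6.95 and 6.85 in wild-type cells and also fell against γ1/γ1, by 0.70 (limma adjusted p = 0.048).

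Of 20 regulators of mitochondrial biogenesis 1 was lower and 1 higher in ε/ε, with a median of -0.38, while 4.02% of all genes were lower and 2.33% higher. At an unadjusted p under 0.05, 9 were lower and 1 higher, against 14.4% and 10.4% of all genes. The ε/ε arrays all lay under the wild-type arrays for 8 of the 20 and above them for 3, against 16.6% and 11.8% of all genes. Tfam, which packages and transcribes mitochondrial DNA, read 4.57, 4.86 and 4.60 in ε/ε, 5.58, 5.65 and 5.34 in γ1/γ1 and 5.87, 5.41 and 5.35 in wild-type cells. It fell by 0.87 against wild-type (limma adjusted p = 0.0201) and by 0.84 against γ1/γ1 (limma adjusted p = 0.0353). Myc, a transcription factor of cell growth, read 8.06, 8.06 and 8.09 in ε/ε, 7.74, 7.85 and 7.26 in γ1/γ1 and 7.41, 7.09 and 7.42 in wild-type cells and rose by 0.76 (limma adjusted p = 0.0332). Of 17 genes of the citric acid cycle 1, Idh2, rose by 1.10 (limma adjusted p = 0.0341) and 0 fell (4 lower and 1 higher at an unadjusted p under 0.05), with a median of -0.09.

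The members' shift differed among the ε/ε arrays. As log2 signal minus the wild-type mean, the median over the 83 genes was -0.42, -0.16 and -0.24 on ε/ε replicates 1, 2 and 3, -0.14, -0.07 and -0.18 on the γ1/γ1 arrays and 0.07, -0.08 and 0.02 on the wild-type arrays, which enter those means themselves. ε/ε replicate 1, the lowest, also had the highest macrophage signal. The 13 macrophage markers had a median log2 signal of 6.77, 4.99 and 3.76 on the ε/ε arrays, 3.72 to 4.02 on the γ1/γ1 arrays and 3.71 to 3.79 on the wild-type arrays. Their linear signals summed to 258 to 2311, 201 to 226 and 186 to 198. None was at 0, and in ε/ε 0 of the 10 tested passed in limma, while 10 of 10 lay above 0. At an unadjusted p under 0.05, 0 were lower and 5 higher, against 14.4% and 10.4% of all genes. The part of the macrophage markers in the members' values was not tested. Without ε/ε replicate 1 the members' median was -0.23, and 75.9% lay below 0. Of 4 marginal zone B cell markers tested 2 were higher in ε/ε, where 2.33% of all genes were. These were Dtx1 by 1.08 (limma adjusted p = 0.00506) and Myof by 1.68 (limma adjusted p = 0.00378). In γ1/γ1 0 of the 4 passed, though 4 of 4 lay above 0, with Myof at 0.84 (limma adjusted p = 0.482). At limma's unadjusted p under 0.05, 3 were higher in γ1/γ1, against 3.03% of all genes. The part of these markers in the result was likewise not tested. The 5 B cell markers had medians of 8.60 to 9.96, and the T cell and neutrophil markers 2.56 to 3.16, under every array median. In ε/ε 5 of 5 B cell markers lay above 0, as did 5878 of the 12170 genes, and 0 passed. Of 3 plasma cell markers tested 0 passed in ε/ε, from -0.33 (Sdc1) to 0.96 (Xbp1, limma adjusted p = 0.0559). The 2 follicular B cell markers tested lay above 0 in ε/ε and in γ1/γ1, and 0 passed. Xist was low on replicates 1 of ε/ε and γ1/γ1 (5.25 and 4.53, against 10.37 to 10.79 elsewhere) and on no wild-type array. Xist was thus unbalanced between the mutants and wild-type, and ε/ε replicate 1 was also the array with the lowest members' median. What part this had in the members' values was not tested. Without these 2 arrays the ε/ε median was -0.23. Of the 83 members 3 passed, Atp5l, Ndufaf1 and Ndufs1, while 4.63% of all genes passed in either direction.

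**Figure D5:**
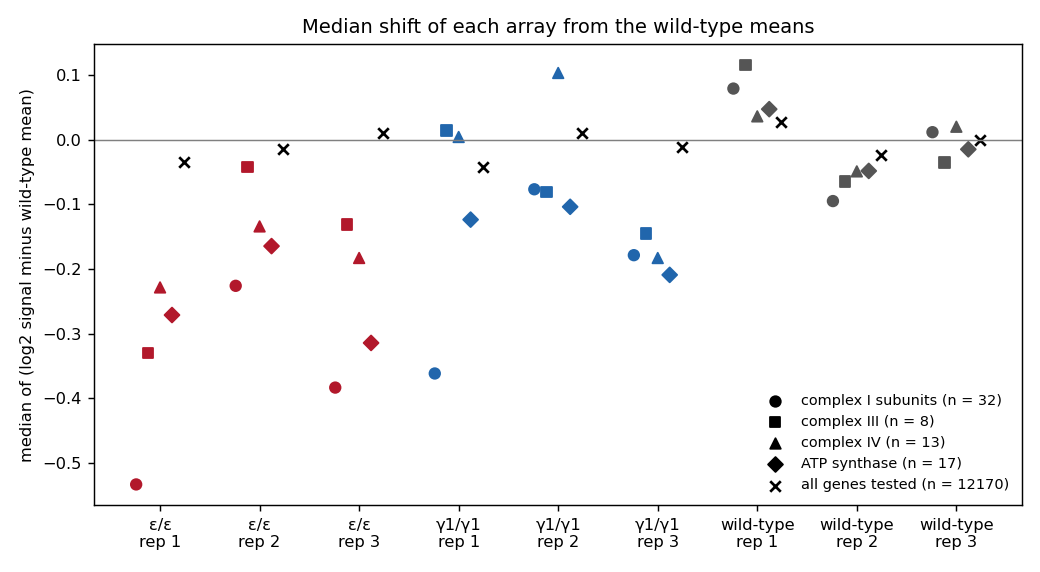
For each array, the median over the genes of a complex of the log2 signal minus the wild-type mean, with all 12170 genes for comparison. Complex I subunits lie lowest on ε/ε replicate 1, at -0.53, with -0.23 and -0.38 on the other ε/ε arrays.

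Promoter motifs are described because nuclear respiratory genes are known targets of NRF1, of ETS factors such as GABPA, and of YY1. RefSeq windows from 250 bases before to 50 after each start were searched on both strands for the palindromic NRF1 motif, CCGGAAG (ETS) and AAGATGG (YY1). The NRF1 motif was found in 7 of 73 members (9.59%) and in 1.07% of 27025 genes with a window, the ETS motif in 19 (26.0%) and 9.93%, and the YY1 motif in 11 (15.1%) and 7.28%. The median ε/ε difference of tested members with and without each motif was -0.22 (7) and -0.30 (63) for NRF1, -0.30 (19) and -0.29 (51) for ETS, and -0.46 (11) and -0.28 (59) for YY1. No test was made, and a match is not a bound site. The members with the NRF1 motif, in capitals within 30 bases on the gene's strand, are shown because their differences lay on both sides of 0.
Atp5g2: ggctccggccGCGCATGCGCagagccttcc
Atp5k: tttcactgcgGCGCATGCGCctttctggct
Cox6a1: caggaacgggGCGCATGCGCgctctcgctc
Ndufa11: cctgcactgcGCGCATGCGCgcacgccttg
Ndufaf4: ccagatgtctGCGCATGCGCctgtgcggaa
Ndufaf5: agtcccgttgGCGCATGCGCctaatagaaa
Uqcrc1: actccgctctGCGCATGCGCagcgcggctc
The ε/ε differences of these 7 were -0.22 (Atp5g2), -0.43 (Atp5k), 0.40 (Cox6a1), 0.74 (Ndufa11), -0.50 (Ndufaf4), -1.01 (Ndufaf5), -0.11 (Uqcrc1), and none passed. The 11 members with the YY1 motif or its reverse complement CCATCTT are shown in the same way.
Atp5j: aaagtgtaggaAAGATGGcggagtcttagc
Atp5j2: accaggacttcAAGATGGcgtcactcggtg
Atp5pb: tgtgcgagcggCCATCTTgctcctgcccct
Cox7c: tgttgtaactcCCATCTTccctttcggtct
Ndufa3: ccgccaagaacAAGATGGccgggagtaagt
Ndufa9: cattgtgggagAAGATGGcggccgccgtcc
Ndufaf8: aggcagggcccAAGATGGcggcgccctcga
Ndufb8: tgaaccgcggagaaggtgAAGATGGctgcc
Ndufc1: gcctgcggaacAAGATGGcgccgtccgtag
Ndufs4: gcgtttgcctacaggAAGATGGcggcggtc
Ndufs7: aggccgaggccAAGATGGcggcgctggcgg
Their ε/ε differences ran from -0.63 (Ndufa3) to 0.27 (Ndufaf8), and none passed.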

How the data were processed

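RNA of sorted follicular B cells was measured on 9 single-colour arrays. Per the labels' protocols, 54 to 360 ng of TRIzol-extracted RNA was amplified and biotin-labelled with Nugen kits. The authors deposited log2 signals for 41345 probe sets. Per the submitters' processing notes R 3.3.1 was used. Background correction and normalization are not stated in the sources read. Of the 83 members tested 23 (27.7%) held the same value, to 6 decimals, on at least 2 arrays, as did 51.9% of all genes tested.

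Genes were named from the platform annotation (23521 probe sets with 1 symbol, 1814 with several, 16010 with none). All 9 arrays entered 1 limma 3.58.1 fit (R 4.3.3, lmFit and eBayes) with a mean per genotype, no covariate and 6 residual degrees of freedom. The script was tested on simulated data. Genes given with every array value were members that passed, the smallest p per complex and comparison, and set isoform and single genes. Others, such as Ndufa1, Ndufb5, Ndufa11, Ndufaf5, Atp5j, Atp5b and the markers Dtx1 and Myof, were chosen after their values were seen. The members and lists were chosen with earlier results of these data known. Deviations of same-numbered arrays correlated at -0.09 to 0.16, and the numbers were not taken as pairs in the main fit. With 3 arrays per genotype, such values cannot exclude a batch shared by same-numbered arrays. Alternatives were other scaling, filters, probe set means, variance models, subsets of arrays, the replicate block, a looser threshold and each array left out. Figures used matplotlib 3.10.9.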

Additional observations from a re-analysis of the deposited data

How the results depend on the processing

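The count of members past limma's threshold between ε/ε and wild-type was 4, each with a difference below 0. It became 8 of 73 tested with the filter at percentile 75. With that filter 14.8% of all genes passed in either direction, against 6.34% in the main fit. The members' count was 2 with the replicate block (5.49% of all genes). Deviations of same-numbered arrays correlated at -0.09 to 0.16, and with 3 arrays per genotype these values cannot exclude a batch they share. The members' count was 10 at an adjusted p under 0.1. The share of all genes at that looser threshold is not given here, so this rise cannot be set against a background. At the main threshold the members' count was 0 to 6 with each array left out (1.53% to 6.48% of all genes). For ε/ε against γ1/γ1 the count of 0 became 1, Atp5l, with the filter at percentile 75. Atp5l also passed with a trended and robust variance and at an adjusted p under 0.1, where the share of all genes is likewise not given. Without the 2 arrays of low Xist 1 passed, Ndufs5, and with each array left out 0 to 1 did (Cox7a2 or Ndufs5). Of all genes 6.50% passed with that filter, 3.04% with that variance and 0.723% without the 2 arrays. With each array left out 1.00% to 2.71% did. For γ1/γ1 against wild-type the count of members was 0 under each alternative fitted. The members' ε/ε median ran from -0.36 to -0.16 and lay below that of all genes under each. The complex IV median between ε/ε and wild-type was -0.123 under quantile normalization. Between ε/ε and γ1/γ1, leaving out each array gave medians of -0.199 to 0.0806 for complex III and -0.284 to 0.0243 for complex IV. Signs turned for Sdhd between ε/ε and wild-type under quantile normalization (0.0424) and with arrays left out (-0.195 to 0.171), for Sdhb (-0.0244 to 0.306) and for Ndufa4 (-0.291 to 0.0739) with arrays left out. Over all genes, ε/ε against wild-type gave 772 past the threshold, and 424 in a fit of the 6 arrays compared and 186 to 789 with each array left out. Between ε/ε and γ1/γ1 324 passed, against 56 in a fit of the 6 arrays compared, 88 without the 2 arrays of low Xist, and 122 to 330 with each array left out. The cause of these changes was not tested. The number of arrays limits the precision, with a median 95% half-interval of 0.446 log2 units over the members.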
